A study of Rattus norvegicus with 10 samples.

Results

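Among 10 rat lacrimal glands, 3 carried very high levels of the mRNA for Dnase1, the secreted endonuclease deoxyribonuclease I, and are described here against the other 7. The glands were divided by the deposited intensity of 1 Dnase1 probe set: those above 100000 were contralateral gland 1, the sham-operated gland and denervated gland 1, and the 7 at or below it were contralateral glands 2 and 3, the unoperated gland and denervated glands 2 to 5. They are called Dnase1-rich and other glands below. Because a measured value made the division, differences between the 2 classes are given as descriptions, without a test.

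All glands came from Rattus norvegicus, and total RNA of each was hybridised to 1 Affymetrix rat array. The 5 denervated glands and the 3 glands titled contralateral controls were taken 7 days after the greater superficial petrosal nerve had been cut, the sham gland 7 days after a sham operation, and the unoperated gland from a normal animal. The descriptions of the 3 contralateral glands place them on the experimental side, against their titles, and the titles were followed. No label gives strain, sex, age or hour of collection, or says that numbered glands came from separate animals, so a spread or p-value covers the variation of these samples alone and may be technical.

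The lacrimal gland secretes the aqueous layer of the tear film from acinar cells, and the petrosal nerve carries its parasympathetic supply. Dnase1 is one of the secreted enzymes of exocrine glands and digests extracellular DNA. Gp2 is a zymogen granule membrane glycoprotein, clusterin (Clu) is a secreted chaperone of epithelial fluids, and Dbp is a transcription factor whose mRNA cycles strongly over the day, driven by BMAL1 and CLOCK through E-boxes. In the same clock, REV-ERB proteins (Nr1d1, Nr1d2) repress Bmal1, and DBP acts on D-box elements.

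Dnase1 set the division, and a probe set of each of Dbp, Nr1d1, Nr1d2 and Bmal1 did not overlap between the classes. A link between Dnase1 and the clock was not tested. The promoters of Dnase1, Dbp, Nr1d1, Nr1d2 and Bmal1 are shown. They are RefSeq windows on the GRCr8 assembly, from 250 bases before to 50 after an annotated start, read 5′ to 3′ along the gene's strand. Capitals mark the E-box CACGTG, the D-box TTATGTAA or the nuclear receptor element AGGTCA on either strand, where AGGTCA on the opposite strand reads TGACCT.
Dnase1, chr10:12008195-12008494, minus strand: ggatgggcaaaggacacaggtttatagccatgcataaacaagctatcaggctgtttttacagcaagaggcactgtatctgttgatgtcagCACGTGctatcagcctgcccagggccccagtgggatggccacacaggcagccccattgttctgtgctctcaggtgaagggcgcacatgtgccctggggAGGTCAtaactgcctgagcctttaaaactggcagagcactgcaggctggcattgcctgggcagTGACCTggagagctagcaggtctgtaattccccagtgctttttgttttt
Dbp, chr1:105312006-105312305, plus strand: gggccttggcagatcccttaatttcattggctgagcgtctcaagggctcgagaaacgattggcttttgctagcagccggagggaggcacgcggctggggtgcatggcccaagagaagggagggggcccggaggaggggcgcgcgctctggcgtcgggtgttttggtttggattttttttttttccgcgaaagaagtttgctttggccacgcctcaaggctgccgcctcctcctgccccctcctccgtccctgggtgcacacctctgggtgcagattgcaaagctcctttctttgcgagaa
Nr1d1, chr10:84229405-84229704, minus strand: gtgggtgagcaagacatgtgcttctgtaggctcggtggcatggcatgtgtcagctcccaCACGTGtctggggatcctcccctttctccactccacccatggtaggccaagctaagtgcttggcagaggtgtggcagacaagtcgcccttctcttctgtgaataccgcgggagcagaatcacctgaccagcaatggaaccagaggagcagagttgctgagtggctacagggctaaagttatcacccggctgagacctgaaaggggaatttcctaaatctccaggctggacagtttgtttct
Nr1d1, other annotated start, chr10:84231763-84232062, minus strand: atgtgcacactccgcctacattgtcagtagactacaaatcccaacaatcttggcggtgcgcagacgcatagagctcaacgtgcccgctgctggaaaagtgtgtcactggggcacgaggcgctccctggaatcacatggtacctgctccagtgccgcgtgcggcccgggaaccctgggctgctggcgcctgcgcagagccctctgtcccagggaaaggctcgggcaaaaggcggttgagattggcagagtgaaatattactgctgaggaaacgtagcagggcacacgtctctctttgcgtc
Nr1d2, chr15:9954784-9955083, plus strand: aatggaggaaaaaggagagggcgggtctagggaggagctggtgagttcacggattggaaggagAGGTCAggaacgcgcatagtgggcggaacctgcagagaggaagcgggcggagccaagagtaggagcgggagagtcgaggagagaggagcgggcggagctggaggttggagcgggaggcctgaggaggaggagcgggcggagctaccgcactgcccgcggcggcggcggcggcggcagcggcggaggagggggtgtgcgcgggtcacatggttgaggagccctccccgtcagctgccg
Bmal1, chr1:176766078-176766377, plus strand: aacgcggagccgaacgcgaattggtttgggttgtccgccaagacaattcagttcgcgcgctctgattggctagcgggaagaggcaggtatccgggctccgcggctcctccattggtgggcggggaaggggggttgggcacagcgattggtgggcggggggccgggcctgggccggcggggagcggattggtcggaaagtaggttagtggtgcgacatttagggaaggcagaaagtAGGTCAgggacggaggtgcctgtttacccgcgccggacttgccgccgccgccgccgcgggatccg

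The Dnase1 window held an E-box that began 160 bases before the start, an AGGTCA 62 bases before it and a TGACCT just past it. Of the 2 Nr1d1 windows, that at chr10:84229405-84229704 held an E-box 191 bases before its start and the other held none of the 3 motifs. The Nr1d2 window held an AGGTCA 187 bases before its start, that of Bmal1 an AGGTCA 15 bases before, and the Dbp window held none of the 3 motifs. Among 33469 rat windows of this length, 6.42% held an E-box, 0.893% a D-box and 16.2% an AGGTCA, so AGGTCA in particular is common. These letter matches describe the windows and locate no binding. The motifs do not overlap one another in these windows. Of 9 genes looked up, 8 had a window, and Clu was not among them.

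Dnase1 set the division, so its values are a description. On the probe set of the rule, the deposited intensity was 621186 in contralateral 1, 721537 in the sham gland and 329146 in denervated 1. In the other glands it was 2984 and 6542 in contralateral 2 and 3, 11714 in the unoperated gland, and 13578, 1514, 762 and 15271 in denervated 2 to 5. The lowest Dnase1-rich gland therefore stood 21.6-fold above the highest other gland, denervated 5, and no gland lay near the limit. Among the 7 other glands the level still differed widely, and the contralateral glands, the denervated glands and the pair without nerve section each held 1 rich gland. The second Dnase1 probe set gave 438126, 465066 and 231646 in the rich glands and between 177.5 and 21433 in the others, with a median of 5360.

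Gp2, Clu and Dbp had the opposite pattern. The log2 intensity of Gp2 was 9.30 in contralateral 1, 8.75 in the sham gland and 8.59 in denervated 1, against 12.35, 12.71 and 13.87 (lowest, median, highest) in the other 7. Its means were 8.88 ± 0.37 (SD, n = 3) and 12.92 ± 0.58 (SD, n = 7), a level 16.4-fold higher in the other glands, and the nearest glands of the 2 classes were 3.05 apart on the log2 scale. Every rich gland thus carried a low Gp2 level, including the sham gland and contralateral 1, titled a control but described as on the experimental side. Clu was 13.49, 14.09 and 14.11 in the same 3 glands and 16.42, 17.00 and 18.20 (lowest, median, highest) in the others, with means of 13.89 ± 0.35 (SD, n = 3) and 17.19 ± 0.63 (SD, n = 7). It stood well above the floor in all 10 glands and was 9.80-fold higher in the other 7. Dbp was 7.86, 7.29 and 8.19 on its brighter probe set, the sham value being the floor of the scale, against 10.85, 11.92 and 12.81. The means were 7.78 ± 0.45 (SD, n = 3) and 11.75 ± 0.68 (SD, n = 7), so Dbp was near the floor in the rich glands and clearly above it in the others. Its other probe set showed the same separation, with 7.37, 7.29 and 7.46 against 9.05, 11.27 and 12.38.

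**Figure D1:**
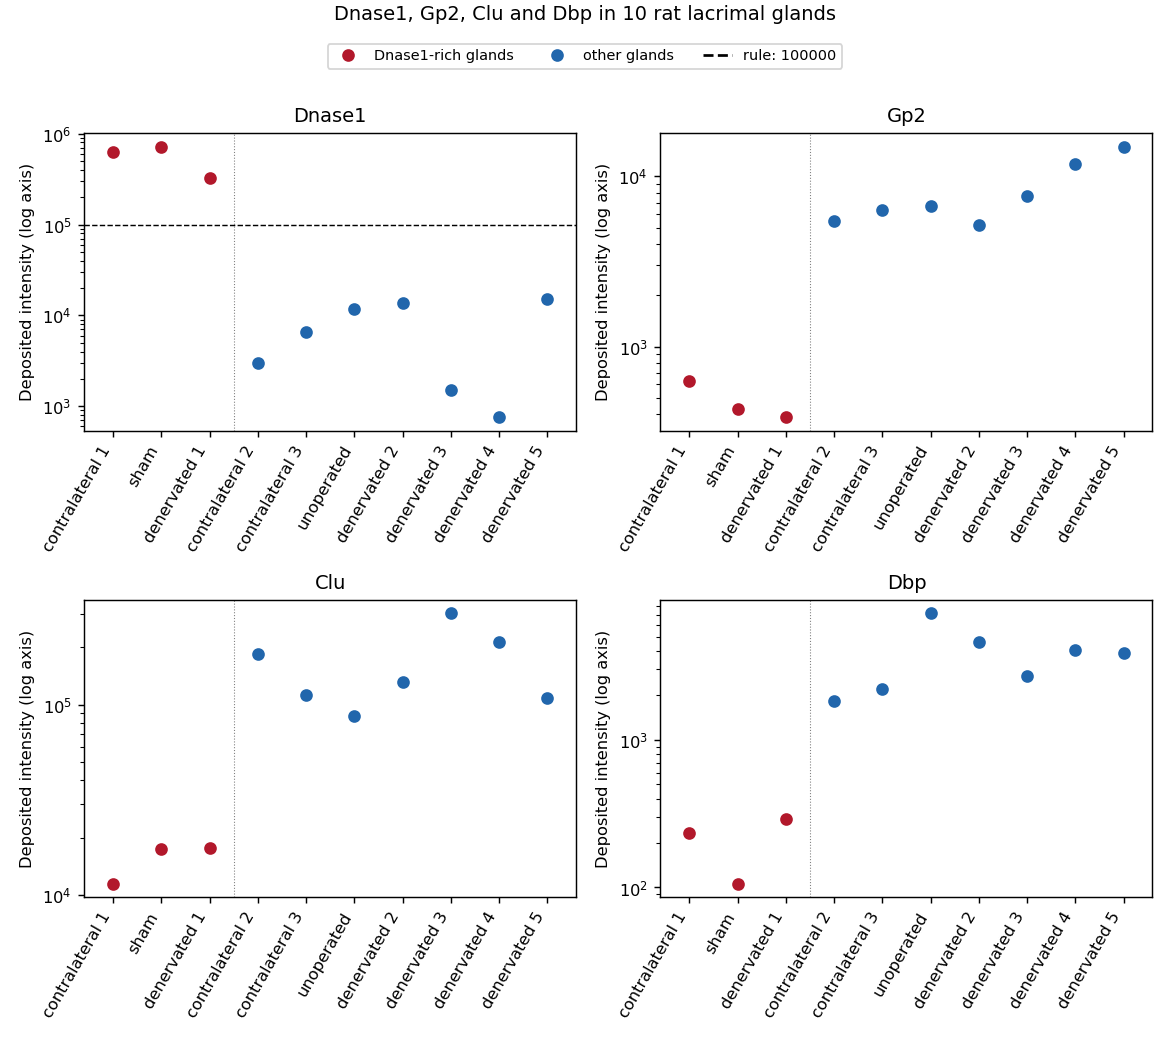
Deposited intensity (log axis) of Dnase1, Gp2, Clu and Dbp, 1 point per gland, with Dnase1-rich glands in red and other glands in blue; the dashed line marks the 100000 of the rule. For Gp2, Clu and Dbp the 3 red points lie below all 7 blue points.

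Across the array, 420 of 6116 probe sets (6.87%) were higher in all 3 rich glands than in any other gland and at least 2-fold higher in the mean, and 189 (3.09%) were lower in the same sense. Together these were 9.96% of the probe sets, and they named 309 higher and 140 lower genes. Without the fold minimum, 554 (9.06%) lay above and 273 (4.46%) below all other glands. Without the sham gland the lower count was 290. The split between directions moved with the scaling: 69.0% of counted probe sets were higher with the deposited scaling, 54.6% after quantile normalization (302 higher, 251 lower) and 39.9% after scaling to equal medians (218 higher, 329 lower). The median log2 difference of all probe sets was 0.20, 0.04 and -0.11 under these 3 scalings, and list medians below are set beside 0.20. With the deposited scaling this median also depended on level. In 3 equal groups by mean level it was 0.42 in the dimmest, 0.29 in the middle and -0.01 in the brightest. For a list of mainly dim or mainly bright probe sets, 0.20 is therefore only a rough mark. No counted probe set among those named changed sign under any of the 3 scalings.

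The arrays of the 2 classes also differed in ways that are no gene's level. The share of probe sets at or below the floor was 12.8% to 17.5% in rich glands and 18.0% to 26.5% in others. For the GAPDH control, the 3′ probe set minus the 5′ one on the log2 scale gave -0.64 to -0.18 in rich glands and 0.01 to 0.35 in others, with no overlap, while the same measure for actin (0.61 to 0.95 against 0.19 to 1.14) and hexokinase overlapped. Correlations of log2 intensity between arrays were 0.851 to 0.898 among rich glands, 0.752 to 0.912 among others and 0.715 to 0.821 between the classes. Of the higher probe sets, in 3 equal groups by mean level, 141 lay in the dimmest, 201 in the middle and 78 in the brightest, while the lower ones numbered 26, 52 and 111. The part of these array measures in the gene differences was not tested. Where a counted gene had further probe sets, 138 of 182 (75.8%) had the same sign for higher genes, against 60.3% of all probe sets above 0, and 51 of 76 (67.1%) for lower genes, against 39.7% below 0.

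**Figure D2:**
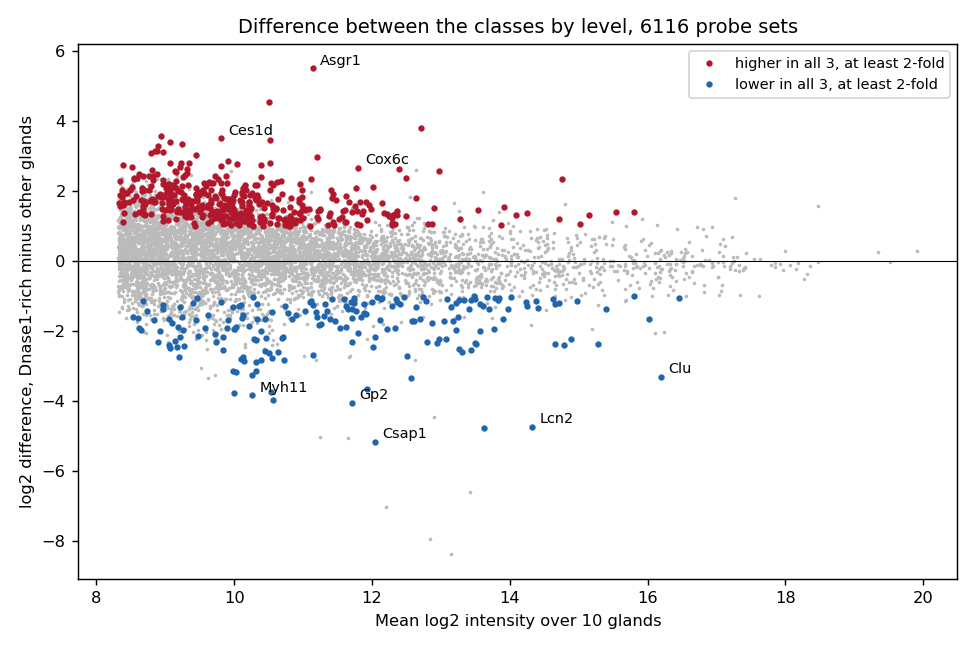
Log2 difference between the means of 3 Dnase1-rich and 7 other glands against the mean log2 intensity over all 10, 1 point per probe set without Dnase1. Red points are the 420 probe sets higher and blue points the 189 lower in all 3 rich glands by at least 2-fold; red points gather at low levels and blue points extend to bright ones such as Clu.

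Tissue identity was checked first. Among lacrimal markers, Obp3, an odorant-binding secretory lipocalin, lay between 17.85 and 18.50 in rich glands and between 16.19 and 18.57 in others on its brighter probe set. Rab3d, a secretory granule GTPase, was 12.90, 12.85 and 12.74 against 11.60 to 12.92. Bhlha15 (Mist1), the transcription factor of secretory acinar cells, was 16.65, 15.13 and 16.04 against 12.12 to 15.50, and the water channel Aqp5 was 12.02, 12.59 and 12.83 against 12.95 to 14.01. The first Aqp5 probe set was thus lower in every rich gland than in any other, by 0.95 in the mean and so under the fold minimum, and the second overlapped. The secretoglobin Scgb2a1 was at the floor in all 3 rich glands and in denervated 2 and 5, and between 16.18 and 18.46 in the 5 remaining glands, so it divided the glands along another line and was not counted.

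Of 18 probe sets for 12 lacrimal secretory proteins, none was counted higher and 4 lower (22.2%, against 3.09% of all probe sets), with a median of -0.09. The 4 were Gp2, Clu, Lcn2 and Cst3. Lcn2, an iron-scavenging lipocalin, was 12.89 in contralateral 1, at the floor of 7.29 in the sham gland and 12.86 in denervated 1, against 15.04, 15.86 and 16.79 in the others. Its difference of -4.74 became -2.88 without the sham gland, whose value alone is at the floor. Cst3, the protease inhibitor cystatin C, was 11.42, 11.45 and 11.37 against 12.24, 13.70 and 15.10, a difference of -2.23. Pip, a prolactin-inducible secretory protein was 19.47, 19.50 and 19.78 against 16.67 to 20.49, and overlapped. Among these secreted products, with Dnase1 left aside because it set the division, Gp2, Clu, Lcn2 and Cst3 were low and Obp3 and Pip overlapped.

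Enzymes of the pancreas, whose acini also make Gp2, had log2 intensities of at most 11.87 in any gland. Of their 9 probe sets 2 were counted higher (22.2%, against 6.87% of all) and none lower, with a median of 1.10 (0.25 with no filter on dim probe sets). Sycn, a zymogen granule protein, was 11.87, 11.53 and 11.38 against 8.33, 9.68 and 10.62, and the chymotrypsin Ctrc was 11.49, 11.58 and 10.02 against 7.59, 9.55 and 9.996. The summed intensity of the whole list was 9460 to 12838 in rich glands and 4768 to 9059 in others. Trypsin Prss1 (9.74, 10.997, 10.67) and lipase Pnlip (9.92, 9.95, 10.69) overlapped the other glands. Salivary proteins gave 0 higher and 1 lower of 17 (5.88%, against 3.09% of all probe sets). That was Cst3, which the lacrimal list also holds. The salivary list had a median of 0.69 and a summed intensity of 45694 to 71450 against 110769 to 275622. In that list Smr3a reached 17.81 in the other glands against at most 10.95 in rich ones, but it was at the floor in denervated 2 and 7.47 in denervated 5, and overlapped. The Harderian gland list gave 0 higher and 1 lower of 16 (6.25%, against 3.09% of all probe sets), which was Plin2.

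The secretory machinery gave few counted members. Of 17 probe sets for granule and regulated secretion genes, 2 were higher (11.8%, against 6.87% of all) and 1 lower (5.88%, against 3.09%). Their median was 0.60. Higher were Sycn and 1 of 5 of Pam, the peptide-amidating enzyme, by 1.21, with another at -0.03. The lower one was Gp2. Of 52 for chaperones of the endoplasmic reticulum 4 were higher and 0 lower (7.69%, near the 6.87% of all probe sets), with a median of 0.39. These were both probe sets of Serp1, which protects unfolded proteins at the translocon, and 2 of P4hb, a protein disulfide isomerase. Serp1 was 12.75, 13.73 and 12.56 against 10.28, 11.44 and 11.79 on one of them, and P4hb 15.20, 14.78 and 15.01 against 11.98, 13.52 and 14.37. Vesicle traffic genes gave 4 higher and 0 lower of 75 (5.33%, against 6.87% of all probe sets). They were Lman1, a cargo receptor, with a difference of 1.67, the GTPases Rab1a with 1.28 and Arf4 with 1.05, and the SNARE Ykt6 with 1.19.

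Clock genes included some of the clearest separations. Of 15 probe sets for 10 genes, 4 were lower (26.7%, against 3.09% of all probe sets) and 1 higher (6.67%, near the 6.87% of all). Those lower were both of Dbp, 1 of Nr1d1 and that of Nr1d2, and the 1 higher was of Bmal1. Nr1d2, the nuclear receptor REV-ERB beta, was 9.11, 8.93 and 9.53 against 10.25, 10.78 and 11.44, a difference of -1.64. Bmal1, the activator at the centre of the clock, was 10.88, 11.42 and 11.001 against 7.29, 9.07 and 10.02, with means of 11.10 ± 0.28 (SD, n = 3) and 8.95 ± 0.96 (SD, n = 7). So this Bmal1 probe set and that of Nr1d2 lay on opposite sides in these glands. The second Bmal1 probe set was 10.62, 10.90 and 10.32 against 8.15, 9.68 and 10.80 and overlapped through denervated 5.

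Nr1d1, REV-ERB alpha, was 7.41, 7.87 and 9.10 against 9.45, 10.19 and 12.87 on 1 probe set, a difference of -2.30, while its other probe set was 11.38, 11.78 and 11.60 against 9.72, 10.97 and 13.28, a difference of 0.40 with overlap. The gene overlaps Thra on the opposite strand, so its signal is uncertain. Bhlhe41, a repressor of the clock, was 7.29 in contralateral 1 and 7.40 in denervated 1 but 9.85 in the sham gland, inside the range of the others (9.37, 10.61 and 11.03), and was not counted. Per2 (9.96, 7.64 and 10.31 against 7.29, 8.87 and 11.17), Bhlhe40, Csnk1d, Tef and Hlf were not counted either. The unoperated gland had the highest Dbp (12.81 on the brighter probe set) and Nr1d1 (12.87) of the 10. The list's median of 0.25 was 0.01 after quantile normalization, -0.06 after median scaling and -0.01 without contralateral 2, and gives no direction for the list.

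**Figure D3:**
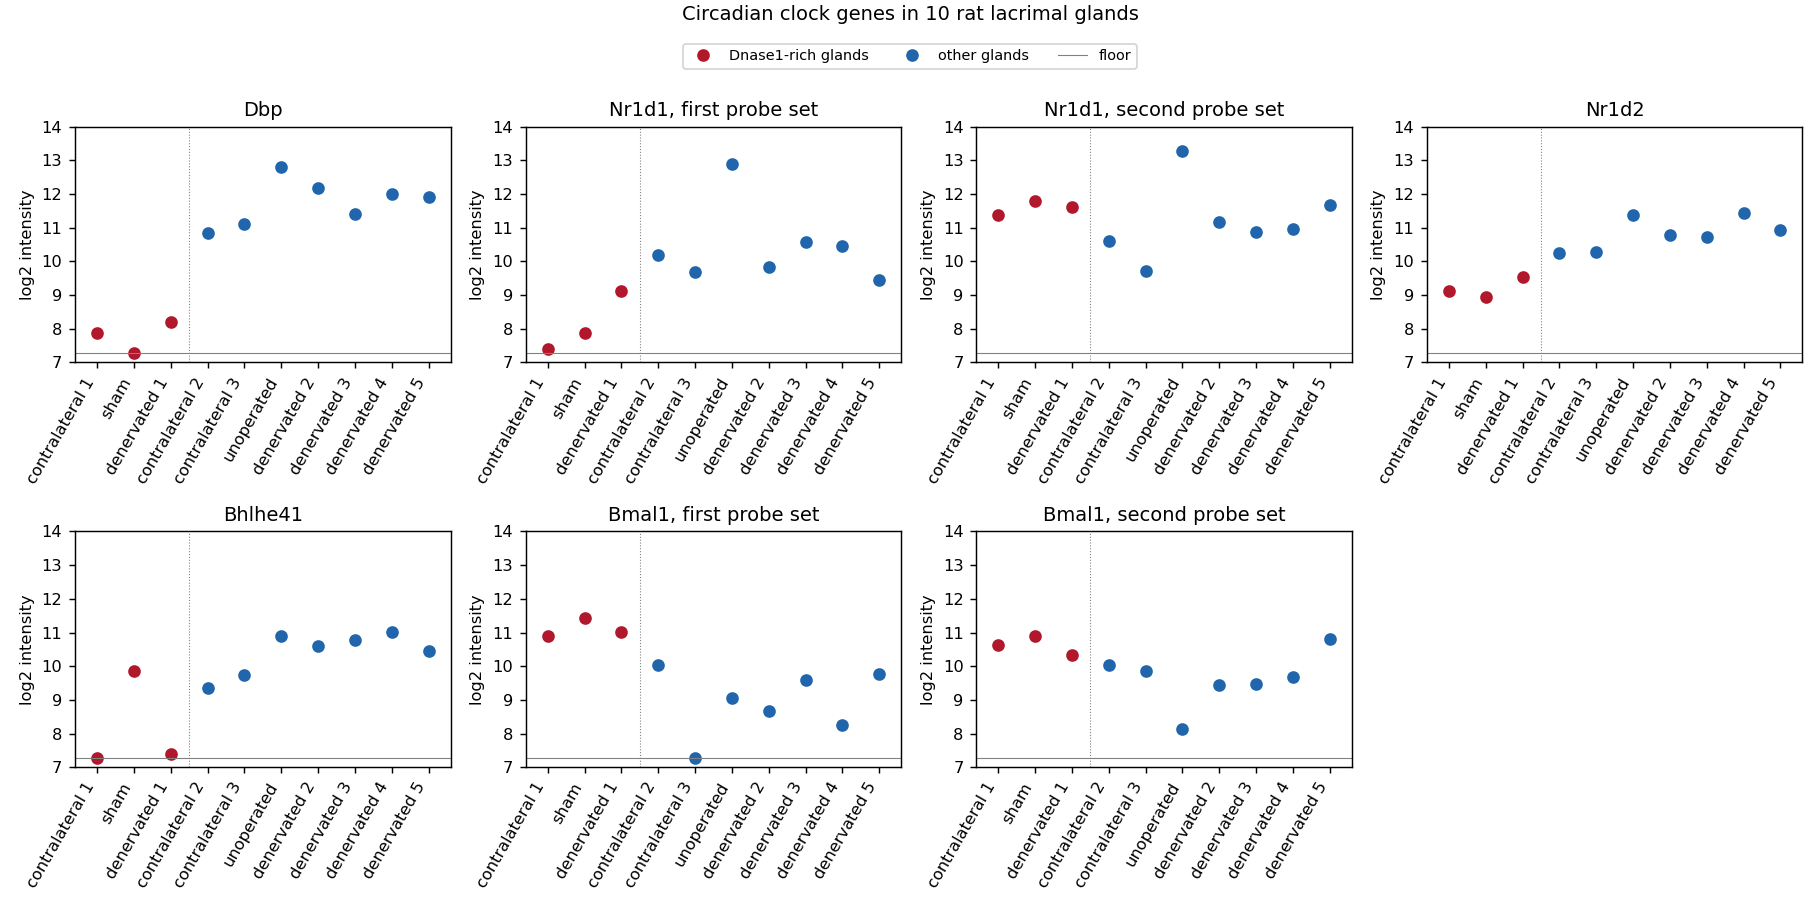
Log2 intensity of 5 clock genes (7 probe sets), 1 point per gland, Dnase1-rich in red and other glands in blue; the grey line is the floor. Dbp, Nr1d2 and the first Nr1d1 probe set lie lower and the first Bmal1 probe set higher in the 3 red glands; the second Nr1d1 probe set overlaps, Bhlhe41 overlaps through the sham gland and the second Bmal1 probe set through denervated 5.

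Beyond Dnase1, the largest higher gene was Asgr1, a subunit of the asialoglycoprotein receptor known from liver. Its log2 intensity was 14.81, 15.10 and 15.09 in the rich glands, and in the others 7.48 and 7.31 in contralateral 2 and 3, 7.29 in the unoperated gland and 13.63, 9.05, 7.29 and 14.36 in denervated 2 to 5. Asgr1 was therefore also high in denervated 2 and 5, the same 2 other glands in which Scgb2a1 was at the floor. These 2 glands also had the highest Dnase1 among the other glands on the probe set of the rule, 13578 and 15271. The unoperated gland, with Asgr1 at the floor, was close to them at 11714. On the second Asgr1 probe set denervated 2 and 5 again came next to the rich glands, with 10.41 and 10.80. The rich glands had 11.23, 11.66 and 11.86, and the remaining 5 were at the floor.

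Most of the other leading higher genes were dim in the other glands. Ces1d, a carboxylesterase of a family of near-identical genes, was 12.28, 12.23 and 12.30 against 7.29, 8.69 and 10.97, a difference of 3.52. Galnt5, which starts mucin-type O-glycosylation, was 11.54, 11.26 and 11.53 against 7.29, 7.67 and 9.44, and C2cd4b was 13.26, 12.48 and 13.11 against 7.63, 9.87 and 11.12. In each of these genes the 3 rich glands lay close together while the others spread down towards the floor. Hp, the haemoglobin scavenger haptoglobin, was 11.30, 10.52 and 11.61 against 7.29, 8.10 and 9.08. Pnck, a calcium/calmodulin-regulated kinase, was 11.11, 11.45 and 11.74 against 7.29, 7.29 and 9.35. The proteoglycan Cspg4 differed by 3.05, the Notch target Hes5 by 2.87, and the GABA receptor genes Gabrd and Gabbr1 by 2.81 and 2.77. Pdap1, Smim5, Vav2 and Josd2 completed the list with 3.16, 3.14, 3.09 and 2.81, and Rps2-ps1, named as a ribosomal pseudogene whose probes may read its parent, gave 3.28. Hes5, C2cd4b and Gabrd had no gland at the floor, whereas Pnck and Vav2 each had 4 other glands there.

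The largest lower gene was Csap1, a common salivary protein. It was at the floor in contralateral 1, 8.63 in the sham gland and 9.39 in denervated 1, and 11.68, 12.91 and 16.66 in the others, a level 35.5-fold higher in the mean of the latter. Within the other 7, denervated 2 and 5 had the highest values, 16.31 and 16.66. Plin2, which coats lipid droplets, was 10.10, 9.23 and 8.77 against 10.94, 13.27 and 13.99. Prnp, the prion protein, was 7.49, 8.05 and 7.86 against 9.25, 11.35 and 12.06, and Mia was 8.82, 11.07 and 10.80 against 11.59, 13.13 and 15.67. Prnp separated by 1.20 between the nearest glands, and Mia by only 0.52. Igfbp2, an insulin-like growth factor binding protein, differed by -2.89, the choline transporter family gene Slc44a4 by -2.86, the carboxypeptidase Cpq by -3.13 and the antiviral Rsad2 by -3.24, with 0.10 or less between the nearest glands for Igfbp2 and Rsad2. Ccnd1, cyclin D1, differed by -3.74 on 1 probe set (8.002, 7.61 and 8.15 against 10.15, 11.41 and 13.34) but by 0.60 on another, so its direction is not settled by these probes.

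Contractile genes held many lower members. Myoepithelial cells, which squeeze lacrimal acini, and vascular smooth muscle share these genes. Of 23 probe sets for 14 genes, 9 were counted lower (39.1%, against 3.09% of all probe sets) and 0 higher, 20 lay below 0, and the median was -1.02. Myh11, smooth muscle myosin heavy chain, was 7.29, 8.18 and 7.29 against 10.71, 11.07 and 12.65 on one probe set, and differed by -0.41 with overlap on the other. Acta2, smooth muscle actin, was 10.52, 10.05 and 10.35 against 11.72, 12.56 and 14.10. Tagln, transgelin, was 7.29, 7.56 and 9.49 against 10.12, 10.76 and 12.70, and Tpm2, a tropomyosin, was 7.97, 9.23 and 9.56 against 9.995, 10.79 and 11.87. In each of these the highest rich gland lay under the lowest other gland. Actg2, Myl9, Cnn3 and Krt5 were also counted, and Krt14 (-0.08), Tpm4 and Tpm1 were not. The summed intensity of the list was 44806 to 59811 in rich glands and 62801 to 227186 in others. In whole-gland RNA, fewer cells of a type and less RNA per cell cannot be told apart.

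Epithelial keratins and duct genes had 0 higher and 1 lower of 13 (7.69%, against 3.09% of all probe sets). That was Krt5, which the contractile list also holds. Of the 13, 12 lay below 0, the median was -0.78 and sums were 132349 to 175418 against 188415 to 274953. Endothelial genes went the other way in their median, 0.88, with 12 of 13 above 0. Only 1 was counted (7.69%, near the 6.87% of all). It was Nos3, the endothelial nitric oxide synthase (10.83, 10.26 and 10.78 against 7.29, 8.33 and 10.23). The endothelial sums were 14257 to 18094 against 8130 to 12367. The endothelial probe set below 0 was that of Cav1 (-1.44). The contractile and endothelial lists lay on opposite sides of the median of all probe sets, and the part of vessels in either was not tested.

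Among genes of interferon response and antigen presentation by MHC class I, 5 of 25 probe sets were counted lower, against 3.09% of all probe sets, and 0 higher. Of the 25, 22 lay below 0, and the median was -0.83. B2m, the light chain of MHC class I, was 14.63, 15.16 and 14.80 against 16.01, 16.33 and 17.25. Ifitm3, an antiviral membrane protein, was 12.29, 13.01 and 11.94 against 13.21, 14.69 and 15.67, and the proteasome activator genes Psme1 and Psme2 differed by -1.35 and -1.08. B2m thus separated the classes by 0.85 and Ifitm3 by 0.20. The summed intensity was 166196 to 192673 against 222720 to 565958.

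Leukocyte genes were mixed. Of 30 macrophage and leukocyte probe sets, Apoe (-2.23) and 1 of Cd74 (-1.35) were lower (6.67%, against 3.09% of all probe sets). Ptprc, the common leukocyte antigen, was the 1 higher (3.33%, against 6.87% of all). It differed by 1.96 (10.96, 10.93 and 10.90 against 7.29, 9.09 and 9.79). The median was -0.67, and sums were 99233 to 135289 against 154208 to 627590. Of 20 MHC class II probe sets, RT1-DOa (2.12) and 1 of RT1-Ba (1.37) were higher (10%, against 6.87% of all). The same Cd74 probe set, which both lists hold, was lower (5%, against 3.09%), and 15 of the 20 lay below 0. The other RT1-Ba probe sets gave -0.14 and -1.48, and RT1 genes share sequence, so single values there are uncertain. The 3 B and plasma cell probe sets gave no count. Their part in the other differences was not tested.

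Acute phase genes divided by member: of 28 probe sets, 3 were higher (10.7%, against 6.87% of all probe sets) and 6 lower (21.4%, against 3.09%), with a median of 0.01. Hp and 2 of 4 probe sets of A2m, the protease trap alpha-2-macroglobulin (1.75 and 1.51), were higher. Both of C3, the central complement component (-2.49 and -2.31), 2 of 3 of Cp, the copper carrier ceruloplasmin (-2.38 and -2.37), Lcn2 and Clu were lower. Cp was 13.70, 13.70 and 13.45 against 15.10, 15.71 and 17.25, and C3 was 12.26, 10.34 and 11.93 against 12.39, 14.35 and 14.97. The list's summed intensity was 72226 to 79499 in rich glands against 222671 to 623274 in others.

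Of 28 probe sets for genes induced by glucocorticoids, 5 were lower (17.9%, against 3.09% of all probe sets) and 0 higher, with 23 below 0 and a median of -0.63. The list shares Lcn2 with those above. Gadd45a, a stress-induced growth arrest gene, was at the floor in all 3 rich glands on 1 probe set and 8.95, 10.15 and 11.14 in the others, so its difference of -2.72 understates the change and moved to -3.38 and -1.89 with the lower and the higher floor. A further Gadd45a probe set agreed in direction (-2.16) and another did not (0.87, overlapping). Errfi1, an inhibitor of EGF receptor signalling, was 10.30, 10.22 and 9.74 against 11.003, 12.53 and 13.51, with another probe set at 0.71. Pik3r1, a regulatory subunit of PI3 kinase, was 10.62, 10.57 and 11.39 against 11.71, 12.20 and 13.55. Errfi1 separated the nearest glands of the classes by 0.70 and Pik3r1 by 0.31.

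Immediate early genes, which nerve signals and stress induce within minutes, were counted in both directions: 8 of 44 probe sets higher (18.2%) and 4 lower (9.09%). Those of all probe sets were 6.87% and 3.09%. Counted lower were 2 of 4 probe sets of Jun (-2.83 and -2.17, the others at -1.61 and -0.28), 1 of 2 of Junb (-1.41, the other at -0.14) and Klf6 (-1.81). The first Jun probe set was 9.38, 7.55 and 9.32 against 10.28, 11.90 and 12.40. Higher were 4 probe sets of Crem, a cyclic AMP-responsive modulator (1.21 to 2.61), Fosl2 (2.08), Nr4a3 (1.76), Arc (1.61) and Egr4 (1.26). Fosl2, a partner of Jun in the AP-1 complex, was 11.32, 11.76 and 11.68 against 7.80, 9.62 and 10.37. The counted probe sets of Jun and Fosl2, both AP-1 genes, lay on opposite sides. Of 69 heat shock and oxidative stress probe sets 6 were higher (8.70%, near the 6.87% of all) and 0 lower: 4 of the small heat shock protein Hspb1 (1.20 to 1.85), Hsph1 (2.29) and Gclm (1.23). Hsph1, a partner of Hsp70, was 12.44, 12.16 and 12.26 against 7.90, 10.50 and 10.65.

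Receptors and signalling genes of autonomic transmission had 5 of 45 probe sets higher (11.1%, against 6.87% of all probe sets) and 0 lower, with a median of 0.55. They were the adrenergic receptors Adra2a (2.09) and Adra1d (1.67), the muscarinic receptor Chrm4 (1.79) and the kinases Prkce (1.89) and Prkaca (1.82). Further probe sets of Adra2a (0.96 and 0.73), Prkce (1.42 and 0.12) and Prkaca (0.56) were not counted. Chrm4 was 10.62, 10.61 and 10.50 against 7.82, 9.09 and 9.94. The muscarinic receptor Chrm3, which drives lacrimal secretion, was not counted: its brighter probe set was 12.25, 12.08 and 12.25 against 11.64, 12.00 and 12.40. Among 40 ion and water transport probe sets, 4 were higher (10%, against 6.87% of all probe sets): Atp2b1, Cftr, Kcne1 and Kcnj1, by 1.90, 1.66, 1.52 and 1.42. Lower were 2 (5%, against 3.09% of all), the anion exchanger Slc4a2 (-2.29) and the sodium pump subunit Atp1b1 (-2.22). Atp1b1 was 11.51, 11.90 and 11.17 against 12.33, 13.44 and 15.32.

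Metabolic and housekeeping lists held few counted members. Their shares ran from 2.86% to 7.41% higher, against 6.87% of all probe sets, and from 0% to 8.33% lower, against 3.09%. Of 93 oxidative phosphorylation probe sets 5 were higher (5.38%) and 1 lower (1.08%), led by Cox6c, a cytochrome oxidase subunit (13.52, 13.97 and 13.499 against 10.31, 10.69 and 11.99). Cox6a2 followed with 1.98, and Ndufb8 and Ndufs8 (1.497 and 1.496) had other probe sets of the opposite sign. Lipid and sterol synthesis gave 4 higher and 1 lower of 54, with Cyp51, a sterol demethylase, at 12.75, 12.32 and 12.15 against 9.60, 10.36 and 11.12, 2 of 4 Me1 probe sets at 1.26 and 1.16 (the others at -0.66 and -0.0048), Acsl4 at 1.02 and Elovl5 at -1.24. Glycolysis and hypoxia gave Hk2 higher (1.53, with another probe set at -1.63) and Pfkl (-1.91) and Eno1 (-1.32) lower, of 24. Of 65 ribosomal protein probe sets 2 were higher and 0 lower, Rps2-ps1 and Rpl3l. In the cell cycle list Plk1 was higher by 1.38, and Ccnd1 and 1 of 2 of Ccne1 lower (-1.54, the other at 0.39), of 35. Amino acid transport gave Slc7a1 (1.63) of 25.

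Markers of tissues next to the gland gave few counted members. Skeletal muscle had Casq1 higher (1.19, 5% of 20) and nerve and Schwann cells Nefh higher (1.68, 4% of 25), against 6.87% of all probe sets. Blood had Pf4 lower (-1.88, 12.5% of 8), against 3.09% of all probe sets. Adipocytes had none of 11, where Cfd (-2.37) and Fabp4 (-1.40) overlapped. The summed intensity of skeletal muscle was 32139 to 53011 in rich glands and 23025 to 44810 in others, of adipocytes 14560 to 25742 against 14037 to 33872, and of nerve 31157 to 40198 against 30687 to 46012, all overlapping. Of 58 extracellular matrix probe sets, Cspg4 was higher (1.72%, against 6.87% of all). Mgp (-1.78) and Igfbp5 (-1.27) were lower (3.45%, near the 3.09% of all). The sums of this list were 195757 to 241685 against 169921 to 824592.

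**Figure D4:**
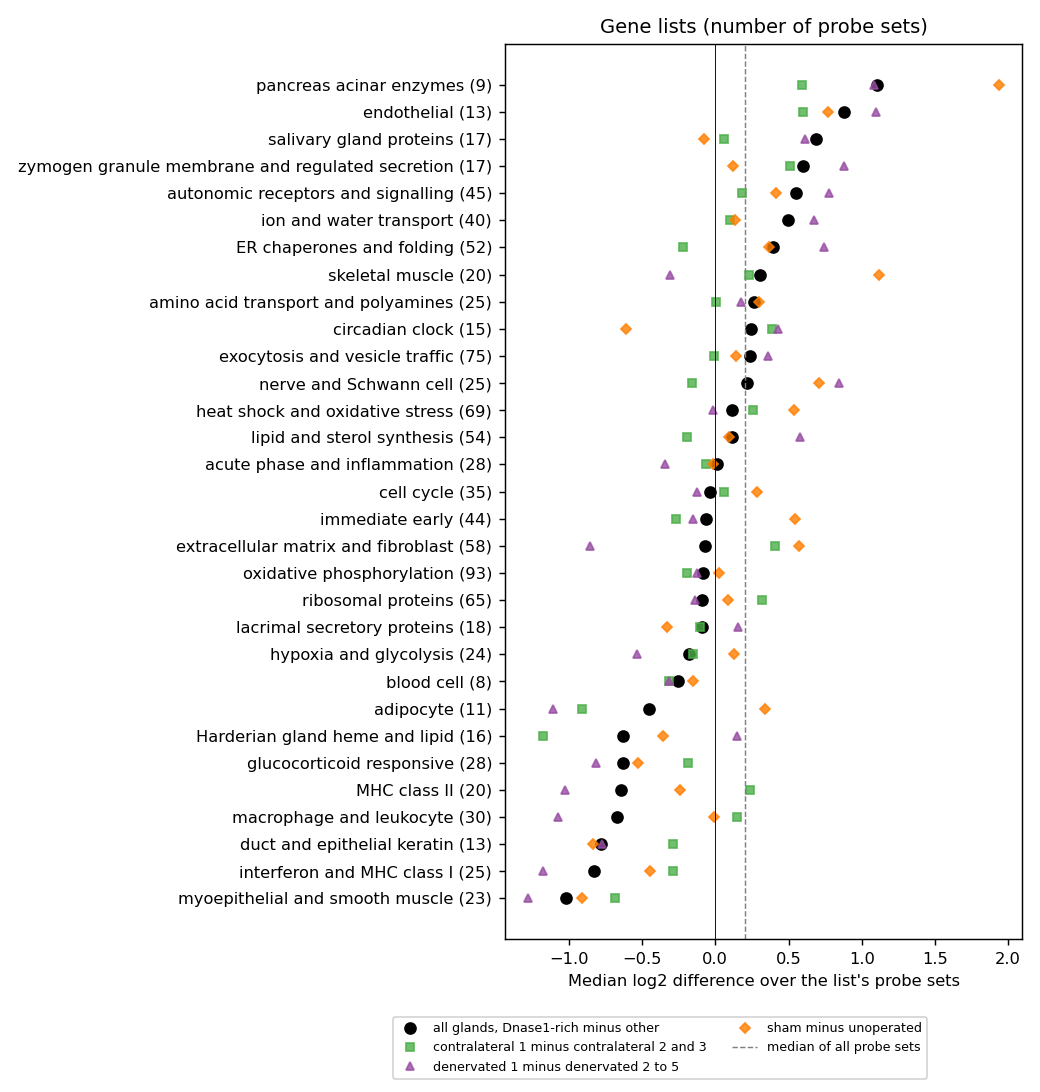
Median log2 difference of each gene list with at least 5 probe sets (number in brackets) for rich minus other glands (black) and inside each condition (green, purple, orange); the dashed line is the median of all probe sets, 0.20. The myoepithelial and smooth muscle list is lowest at -1.02 and below 0 in all 3 conditions, and the pancreas list is highest at 1.10.

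The classes were then set against each other inside each condition, in 3 differences that share no gland: contralateral 1 minus the mean of contralateral 2 and 3, denervated 1 minus the mean of denervated 2 to 5, and sham minus unoperated. Of 6116 probe sets, 260 (4.25%) were at least 2-fold higher in all 3 differences and 121 (1.98%) at least 2-fold lower. Of those higher 180 were among the 420 counted above (42.9% of the 420 and 69.2% of the 260), and of those lower 80 were among the 189 (42.3% and 66.1%). Across probe sets, which are not independent replicates, Pearson's r was 0.48 between the contralateral and the denervated difference (Spearman's rho 0.44), 0.31 (0.25) between the contralateral difference and sham minus unoperated, and 0.28 (0.26) between the denervated difference and sham minus unoperated. All 3 rest on glands chosen by the same Dnase1 values and are descriptions.

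Gp2 differed by -3.22 inside the contralateral glands, -4.57 inside the denervated and -3.96 between sham and unoperated, and Clu by -3.65, -3.30 and -2.33. Dbp differed by -3.12, -3.68 and -5.52, and Bmal1 by 2.23, 1.94 and 2.35 on its counted probe set. Each of these 4 was counted for not overlapping, so its side inside every condition is given by that choice. Their differences were more than 1 in size in each condition. Nr1d1 was uneven, with -2.52, -0.97 and -5.01. Mia (-3.93, -3.67 and -0.52), Vav2 (2.83, 3.71 and 1.06), Apoe (-1.71, -3.12 and -0.12) and Pf4 (-1.51, -2.62 and -0.09) were smallest between sham and unoperated. The myoepithelial list had medians of -0.69, -1.28 and -0.91. The MHC class II list had 0.24, -1.03 and -0.24, the macrophage list 0.15, -1.08 and -0.01, and the interferon list -0.29, -1.18 and -0.45, so the medians of the first 2 lists were not below 0 inside the contralateral glands.

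**Figure D5:**
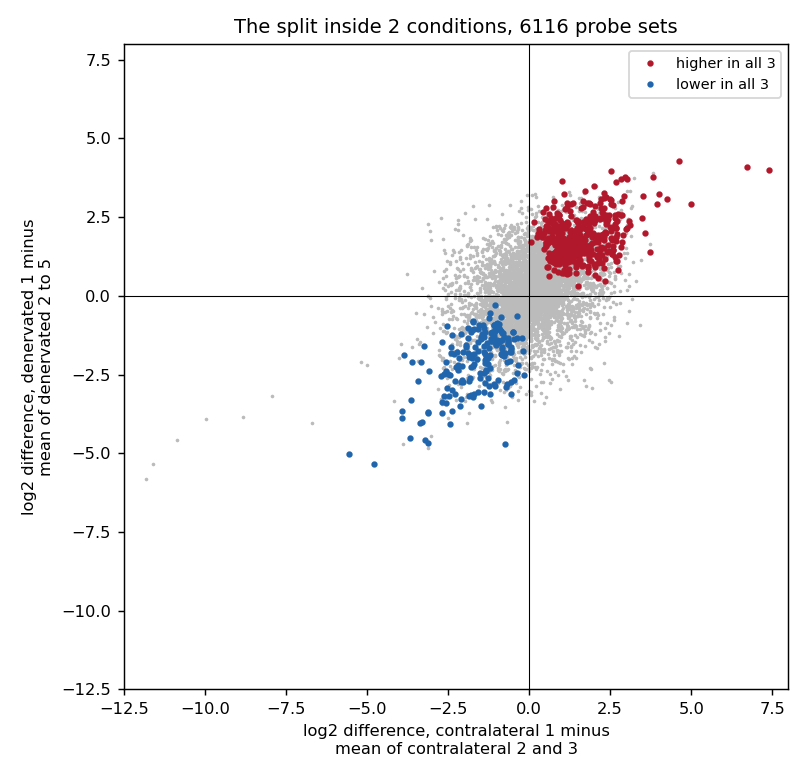
Log2 difference inside the denervated glands against that inside the contralateral glands, 1 point per probe set without Dnase1; red and blue mark the 420 higher and 189 lower probe sets. The coloured points must lie in the upper right or lower left because each was counted for not overlapping; over all points r was 0.48.

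Denervation is the contrast of the labels and played no part in the division, so it was tested, on 5 denervated against 5 control glands. In limma's test with Benjamini-Hochberg adjustment, 0 of 6118 probe sets passed an adjusted p of 0.05, 592 (9.68%) had an unadjusted p under 0.05, and the lowest adjusted p was 0.384. Dnase1 had a log2 difference of -2.07 (SE 1.72, limma adjusted p = 0.712) on the probe set of the rule, Gp2 1.09 (SE 0.99, adjusted p = 0.733), Clu 1.10 (SE 0.81, adjusted p = 0.671) and Dbp 1.15 (SE 1.00, adjusted p = 0.723) on its brighter probe set. With 4 of 5 denervated and 3 of 5 control glands in the other class, the standard errors of these 4 genes ran from 0.81 to 1.72.

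Entering the division as a block left 0 passing (608 at an unadjusted p under 0.05, lowest limma adjusted p 0.249), and the Gp2 difference became 0.29 (SE 0.32, adjusted p = 0.801). Over the 116 named probe sets the median SE fell from 0.658 to 0.465 and was smaller with the block in 109. These were named mainly for differing between the classes, so a smaller SE with the block follows from how they were chosen. Leaving out the 3 rich glands also gave 0 (717 unadjusted, lowest limma adjusted p 0.116). Leaving out denervated 1 alone gave 70, of which 48 were higher and 22 lower in denervated glands. All 70 had the opposite sign in the division, 15 of the 48 being counted lower and 6 of the 22 higher in rich glands, and without denervated 1 both remaining rich glands are controls. Among the named probe sets these were Apoe (2.45, SE 0.39, limma adjusted p = 0.022), Cst3 (2.27, SE 0.36, adjusted p = 0.022), Ifitm3 (1.95, SE 0.30, adjusted p = 0.022), C3 (2.40), Mgp (2.23), Pf4 (1.87) and P4hb (-1.65). With all 10 glands and the block, the same probe sets had limma adjusted p-values of 0.346, 0.333, 0.413, 0.260, 0.348, 0.401 and 0.394. Further probe sets of named genes also passed without denervated 1, among them those of Serp1 (-1.58) and Errfi1 (3.26). A limma interaction term asked whether the denervation difference itself differed between the classes, where the rich class holds 1 denervated and 2 control glands. None of 6118 passed (244 unadjusted, lowest adjusted p 0.998), and this p does not show that the differences were equal.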

How the data were processed

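Deposited were linear intensities of 8799 probe sets on 10 Affymetrix arrays, which the authors had scaled: with 2% trimmed at each end, array means ran from 2505 to 2507. The software is not given in the sources used here. The 59 array controls were left out, intensities under the 20th percentile (156.2) were set to that floor, log2 was taken, and the 6118 probe sets with a mean above the 30th percentile were kept. The 2 of Dnase1 were left out of counts, leaving 6116 (3620 genes). Differences involving the floor understate the change. Of 8740 probe sets, 7006 carried 1 symbol in the platform annotation (6985 with a gene ID in RefSeq's GRCr8 table), 308 several and 1426 none; the last 2 kinds were compared but not named. Precision is limited by the number of arrays.

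The classes were compared by overlap and mean log2 difference. Denervated and control glands were tested with limma 3.58.1 in R 4.3.3 (lmFit, eBayes with trend, two-sided, Benjamini-Hochberg over all probe sets), checked on simulated data. Named genes were the 4 markers, the 15 largest counted differences in each direction, and of each of 32 gene lists up to 4 counted members (up to 2 by size where none was counted); other list members in the text were chosen after their values were seen. Other probe sets of a named gene were given where their sign differs. The division, its markers and the lists were chosen with earlier results of these data known. Alternatives were 2 other scalings (quantile, median), other floors, filters and fold minimum, 1 probe set per gene, no variance trend, array weights, both blocks and leaving out each gland; the interaction was added after the data were seen. Figures used matplotlib 3.10.9.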

Additional observations from a re-analysis of the deposited data

Results flagged for a closer look

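Named probe sets were checked in the 5 denervated and in the 7 other glands, 232 groups in all. The highest or lowest gland stood apart by Dixon's criterion in 26, where chance flags about 1 in 20 groups. Values are log2 intensities. Denervated 1, the 1 Dnase1-rich gland of its group, was the lowest of the 5 denervated glands in Gp2 (8.59), both Dbp probe sets (7.46 and 8.19), Plin2 (8.77), Prnp (7.86), Gadd45a (7.29), Errfi1 (9.74), C3 (11.93), Pfkl (7.604), Ifitm3 (11.94), Psme1 (12.73) and Pf4 (10.20), and the highest in Pdap1 (11.27), Vav2 (11.09) and Adra2a (10.11). Since these genes were named for the difference between the classes, its place there follows from how they were chosen. In Ccne1, denervated 3 was the highest of the denervated glands (10.15) on the probe set that was not counted.

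Among the 7 other glands, the unoperated gland was highest in Pdap1 (10.01), Vav2 (10.27) and Nr1d1 (12.87) and lowest in Plin2 (10.94). Denervated 5 was highest in Smim5 (10.22) and lowest in Rsad2 (9.03). The lowest gland was denervated 3 in Fosl2 (7.80), contralateral 3 in Hspb1 (9.62), and denervated 4 in Ndufb8 (7.85) and in the Ccnd1 probe set that was not counted (7.29).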

How the results depend on the processing

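Counts are given as higher and lower between the classes, then higher and lower inside all 3 conditions, with main values of 420, 189, 260 and 121. Median scaling gave 218, 329, 141 and 193; quantile normalization gave 164 and 184 inside conditions; 1 probe set per gene gave 250, 110, 147 and 66, since fewer probe sets enter; a 4-fold minimum gave 101, 63, 27 and 28; and a filter at the 50th percentile gave 146 higher inside conditions. Leaving out 1 gland in turn gave 414 to 627 higher, 187 to 290 lower, and 235 to 270 and 118 to 124 inside conditions, the 290 without the sham gland; fewer glands have to be separated there. No probe set was counted in the opposite direction under these alternatives. Of 1623 values of named probe sets under an alternative, 6 moved by more than the spread, and no counted value changed sign; of 512 list medians, 29 moved. The denervation count was 0 to 70 with 1 gland left out, the 70 without denervated 1 (1105 at an unadjusted p under 0.05, lowest limma adjusted p 0.0163), and 0 under every other alternative run. The cause of these shifts was not tested beyond what is said here.

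With the glands' label numbers as a replicate block, 0 probe sets passed in limma (504 at an unadjusted p under 0.05, lowest adjusted p 0.596). Deviations from the group means correlated at 0.49, 0.037 and 0.16 in the pairs numbered 1, 2 and 3, so the numbers were not taken as pairing; contralateral 1 and denervated 1 are both Dnase1-rich. The smallest signals, at or near the floor, limit what can be read from dim probe sets.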
